A study of Mus musculus with 2 samples.

Results

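Glutathione S-transferases (GSTs) are the enzymes that join the tripeptide glutathione to reactive, oil-soluble compounds. The 10 genes described here are Gsta1, Gm3776, Gsta3 and Gsta4 of the alpha class, Gstm1, Gstm2 and Gstm5 of the mu class, Gstp1 of the pi class, Gsto1 of the omega class and Mgst1 of the unrelated microsomal (MAPEG) family. They were chosen by gene symbol from the 44291 genes in the files, and the choice was made on the levels measured in these same libraries, so their values are a description and carry no test. All 10 symbols were found, and all 10 genes had a mean level of at least 1 FPKM, that is reads per exon length, scaled to the depth of the library.

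RNA-seq was carried out on primary fibro-adipogenic progenitors (FAPs) of wild-type (WT) mice, the stromal cells of skeletal muscle that can become adipocytes. One culture was treated with platelet-rich plasma (PRP) and the other with vehicle as control, with 1 library per group and 2 in all. The cells of both groups were under adipogenic differentiation, for which the medium held insulin (10 µg/ml), dexamethasone (0.25 µM), IBMX (0.5 mM) and FBS (20%), so no library shows FAPs outside this medium. The treatment is labelled PRP but is described in the study as exosomes isolated from PRP. The FAPs were sorted by flow cytometry from hind-limb muscle, and the C57BL/6 mice of the study were bought at 6 to 8 weeks of age, although the methods do not tie an age to the sequenced cultures.

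Soluble GSTs work as pairs of subunits, and the alpha, mu and pi classes differ in the compounds they prefer. Alpha enzymes also reduce lipid hydroperoxides, and GSTA4 is known for conjugating 4-hydroxynonenal, an aldehyde formed when membrane lipids are oxidised. In mouse liver many GST genes are induced by electrophiles through the transcription factor NRF2, which binds antioxidant response elements in DNA, and adipocytes are known to use GSTA4 against lipid aldehydes.

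The first 2 genes are near-identical copies, and this bears on every value given for them. Gsta1 (ENSMUSG00000074183) lies at chr9:78230656-78242684 on the plus strand of GRCm38 (mm10), and Gm3776 (ENSMUSG00000111709) at chr9:78257129-78269166 on the same strand, with starts 26.5 kb apart. Their coding sequences of 669 bases differ at 2 bases, T25C and C591T, counted from 1 at the A of the start codon with the base of Gsta1 first. They are identical at 667 of 669 positions (99.7%), and the run between the differences is 565 bases long. The 60 coding bases around the first difference, positions 1 to 60, are shown 5′ to 3′ for both copies and for Gsta5 and Gsta2, the next most similar genes of the same cluster, with bases that differ from Gsta1 in capitals.
Gsta1 (chr9:78232240-78232299, plus strand): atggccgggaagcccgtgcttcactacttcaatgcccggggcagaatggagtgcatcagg
Gm3776 (chr9:78258712-78258771, plus strand): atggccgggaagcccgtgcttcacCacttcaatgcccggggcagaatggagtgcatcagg
Gsta5 (chr9:78294806-78294865, plus strand): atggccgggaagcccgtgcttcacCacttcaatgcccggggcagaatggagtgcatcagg
Gsta2 (chr9:78341857-78341916, minus strand): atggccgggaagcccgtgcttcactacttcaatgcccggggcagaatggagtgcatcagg
The second difference lies in positions 561 to 620, shown in the same way.
Gsta1 (chr9:78242467-78242526, plus strand): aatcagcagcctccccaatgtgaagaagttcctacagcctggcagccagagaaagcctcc
Gm3776 (chr9:78268950-78269009, plus strand): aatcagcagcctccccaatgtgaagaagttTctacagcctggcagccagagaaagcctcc
Gsta5 (chr9:78305309-78305368, plus strand): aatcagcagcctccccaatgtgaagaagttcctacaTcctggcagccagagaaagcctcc
Gsta2 (chr9:78331176-78331235, minus strand): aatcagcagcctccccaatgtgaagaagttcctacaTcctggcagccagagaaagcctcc
In the first window Gm3776 has the same bases as Gsta5, and Gsta1 the same as Gsta2, so a read inside that window cannot name its gene.

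Over whole transcripts of the GENCODE M21 annotation, 80.6% of the stretches of 100 bases in Gsta1 also occurred in another gene, and 64.7% of all its stretches occurred in Gm3776. For Gm3776 the share was 85.5%, with 71.4% in Gsta1. Among the other genes, 25.1% of the stretches of Gstp1 occurred in Gstp2, a neighbouring pi-class gene whose coding sequence is 98.1% identical, and 10.8% in the pseudogene Gstp-ps. For Gstm1, Gstm5 and Gstm2 the shares found in another gene were 5.86%, 5.58% and 0.357%. Gsta3, Gsta4, Gsto1 and Mgst1 shared no stretch of 100 bases with any other gene. How the authors counted reads that fit several genes is not given in the sources used here. The split of reads between Gsta1 and Gm3776, and to a lesser extent among Gstp1, Gstp2 and Gstp-ps, is therefore uncertain.

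**Figure D1:**
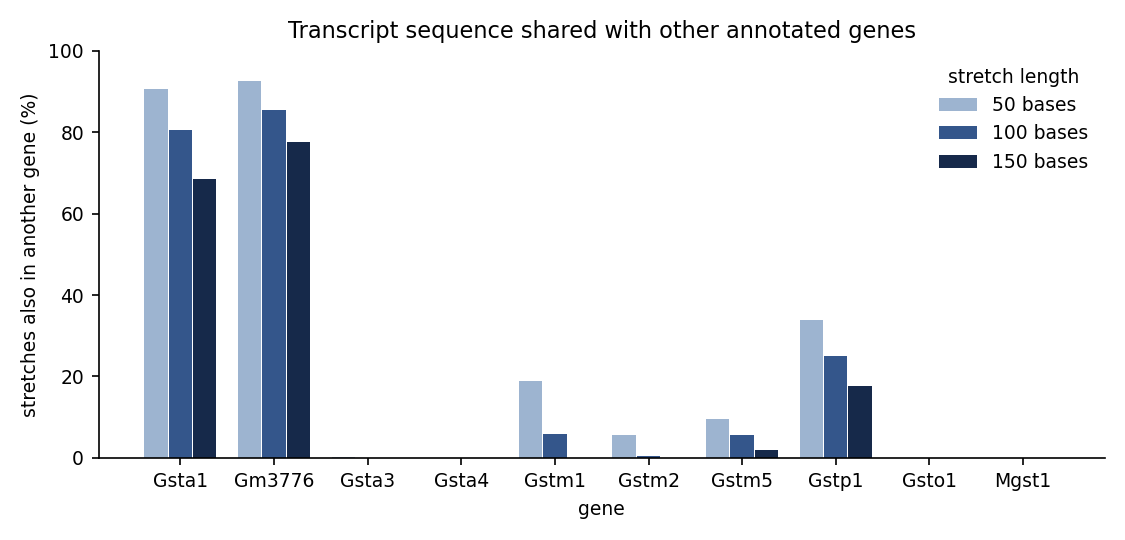
Share of all stretches of 50, 100 or 150 bases in the transcripts of each gene that also occur in a transcript of another annotated gene (percent, bars from 0). Gsta1 and Gm3776 stand at 80.6% and 85.5% for stretches of 100 bases, and Gsta3, Gsta4, Gsto1 and Mgst1 at 0.

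Assigned reads, as recovered from the FPKM values, numbered 40120843 for PRP and 34139741 for control. With 1 library per group no difference has a replicate check, and each ratio is given with an exact Clopper-Pearson 95% interval that covers counting error only. Such an interval compares 2 libraries, not 2 treatments. FAP and fibroblast markers passed the level filter (a mean of at least 1 FPKM) in 9 of 10 cases, while Lum, a proteoglycan gene of fibroblasts, was near 0 in both libraries. Each of these 9 was lower under PRP with an interval below 1, beside 26.1% of the 12369 genes that had an interval. They summed to 404.4 FPKM against 658.6. The highest was Col1a1 at 218.7 FPKM in the control library. Of 11 adipocyte markers 8 passed, 5 higher and 3 lower under PRP, beside 50.9% higher among the 13401 genes that passed. Their median log2 difference was 0.10. Pparg (ratio 1.33, 1.15 to 1.53) and Fabp4 (1.21, 1.15 to 1.27) were higher, while Lpl (0.810, 0.791 to 0.828) was lower. Plin4 had the largest difference of these 8, at 6.27 against 11.6 FPKM (ratio 0.540, no interval because its reads were not recovered). The study reports lower Pparg mRNA by RT-PCR in FAPs treated with PRP exosomes of young donors. From its transcriptome of FAPs so treated, it also reports adipogenesis-related pathways and the PPAR signaling pathway as downregulated. All 11 adipocyte markers summed to 147.2 FPKM under PRP against 157.6 under control. Markers of other cells summed to less than those of FAPs or adipocytes, but some were higher under PRP along with the alpha genes. The 8 myogenic markers summed to 43.1 FPKM against 27.2, with Tnnc1, a troponin gene, at 21.2 against 8.75 FPKM (ratio 2.43, 2.02 to 2.93). Acta1, an actin gene, was at 15.1 against 11.1 FPKM (1.36, 1.17 to 1.57). Des and Ckm had intervals that include 1, and Pax7 and Myog were at 0 in both. The 9 macrophage markers summed to 11.3 FPKM against 11.2, with Cd68 at 4.56 against 2.31 (1.98, 1.41 to 2.82), Lyz2 at 4.91 against 7.57 (0.648, 0.512 to 0.820) and the pan-leukocyte gene Ptprc at 0.0109 against 0.0192. The 8 endothelial markers summed to 9.59 FPKM against 5.49, with the VEGF receptor gene Kdr at 4.23 FPKM in the PRP library (ratio 2.82, 2.43 to 3.28) and Cldn5 at 0 in both. The 9 platelet and erythroid markers summed to 1.63 FPKM against 2.99, with 4 at 0 in both, and the 7 hepatocyte and epithelial markers to 1.66 against 2.17, with Alb at 0 in both. The part that these shifts play in the GST values was not tested, and in bulk RNA a change in the share of a cell type and a change in RNA per cell cannot be told apart.

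All 4 alpha-class genes of the list were at least 2-fold higher in the PRP library, and none of the 6 genes of the other classes differed by that much. Across the 13401 genes with a mean of at least 1 FPKM, 50.9% were higher in the PRP library, 2.00% were at least 2-fold higher there and 2.83% differed at least 2-fold in either direction, counted on log2(FPKM + 1). The list was chosen on this contrast, so nothing is read from its count beside that share. The median log2 difference, PRP minus control, was 0.30 over the 10 genes, 2.34 over the 4 alpha genes, 0.19 over the other 6 genes and 0.01 over all 13401 genes. These medians count Gsta1 and Gm3776 as 2 genes. With the pair merged, the median of the list was 0.24.

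Gm3776 was measured at 55.8 FPKM under PRP and 5.66 FPKM under control, and Gsta1 at 41.9 and 4.50 FPKM. Both encode alpha-class enzymes, and their ratios of 9.85 (95% interval 7.88 to 12.5) for Gm3776 and 9.31 (7.33 to 12.0) for Gsta1 differed by less than the width of either interval. Ordered by log2(FPKM + 1) difference, Gm3776 (3.09) ranked 2 and Gsta1 (2.96) ranked 3 from the highest of the 13401 genes. Since the copies can share reads, they were also taken as 1 unit. Together they held 3566 PRP reads and 316 control reads, a ratio of 9.60 per library total (8.16 to 11.4). Gsta1 took 45.1% of the reads of the pair in the PRP library (exact Clopper-Pearson interval 42.8 to 47.5) and 46.5% in the control library (38.6 to 54.6), and these intervals overlap.

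Gsta4, at chr9:78182774-78209349 on the plus strand, is the gene of the 4-hydroxynonenal conjugating enzyme. Counted gene by gene, it was the most abundant of the 4 alpha genes in both libraries. The Gsta1 pair taken as 1 unit had 97.8 FPKM under PRP, more than Gsta4, and 10.2 FPKM under control. The level of Gsta4 was 82.9 FPKM under PRP and 28.2 FPKM under control, from 4213 and 1217 reads. The ratio was 2.95 (2.69 to 3.23) and the log2(FPKM + 1) difference 1.53, rank 82 of 13401. No stretch of 100 bases in Gsta4 occurred in another gene, so its difference does not rest on reads shared with the Gsta1 pair.

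Gsta3, at chr1:21240589-21265661 on the plus strand, lies apart from the other alpha genes on another chromosome, and its enzyme is known in mice for conjugating the epoxide of aflatoxin B1. It had the lowest FPKM of the 10 genes in both libraries, with 8.32 FPKM under PRP and 1.85 FPKM under control, from 1450 and 274 reads. The ratio was 4.50 (3.75 to 5.45) and the log2(FPKM + 1) difference 1.71, rank 54. Its annotated exons add up to 4344 bases, while its longest coding transcript has 1457, so its FPKM is low for its number of reads. That length is the same in both libraries and does not enter the ratio.

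**Figure D2:**
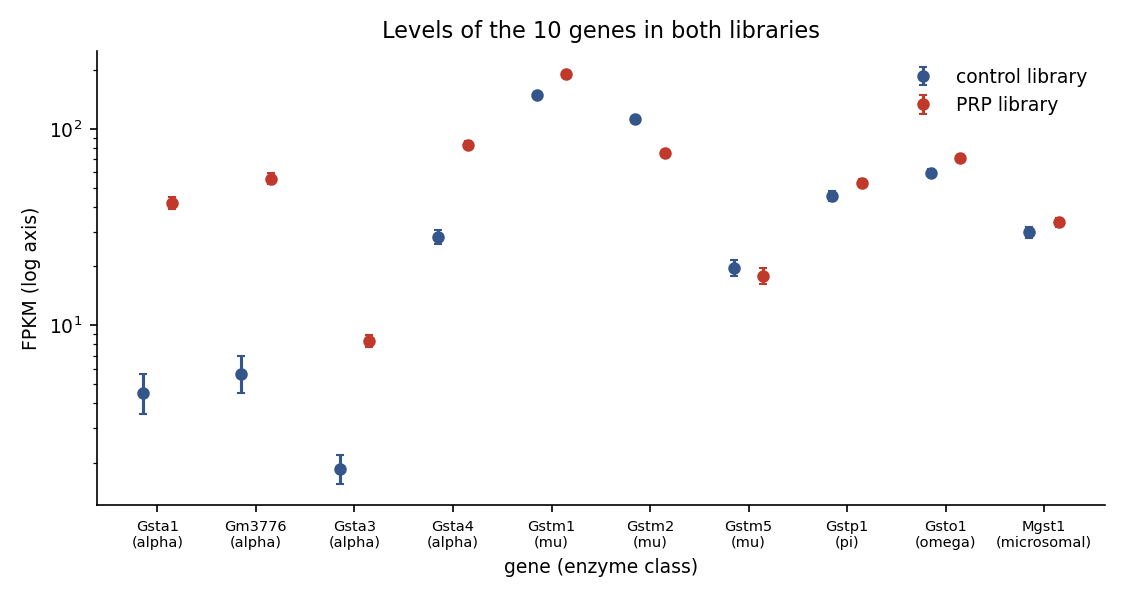
Level of each of the 10 genes in the control (blue) and PRP (red) library, in FPKM on a log axis, with exact Poisson 95% intervals of the recovered fragments (counting error only, 1 library per group). The 4 alpha genes at the left are all higher in the PRP library, from 1.85 to 8.32 FPKM for Gsta3 up to 28.2 to 82.9 FPKM for Gsta4, and the intervals of Gstm5 overlap.

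The 3 mu-class genes, which lie within 1 cluster on chromosome 3, went in different directions. Gstm1, at chr3:108012255-108017973 on the minus strand, encodes a major mu-class enzyme of mouse liver and was the most abundant of the 10 genes in both libraries. It measured 190.9 FPKM under PRP and 149.4 FPKM under control, a ratio of 1.28 (1.23 to 1.33). Gstm2, at chr3:107981702-107986453 on the minus strand, was the other way round, with 75.3 FPKM against 112.2 FPKM and a ratio of 0.671 (0.636 to 0.707). Its coding sequence is 76.8% identical to that of Gstm1, and only 0.357% of its stretches of 100 bases occurred in another gene. Gstm5, at chr3:107895821-107898686 on the plus strand, measured 17.9 and 19.6 FPKM, and its ratio of 0.915 had an interval that includes 1 (0.800 to 1.05). Of its exon bases 13.9% overlap 4933431E20Rik on the opposite strand, a gene at 2.71 and 2.75 FPKM.

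The remaining 3 genes were slightly higher in the PRP library. Gstp1, the pi-class gene at chr19:4035407-4037985 on the minus strand, measured 52.8 FPKM under PRP and 45.6 FPKM under control, a ratio of 1.16 (1.08 to 1.25). Gsto1, at chr19:47854970-47864790 on the plus strand, encodes an omega-class enzyme with thiol transferase and dehydroascorbate reductase activity, and its 70.9 and 59.8 FPKM gave a ratio of 1.19 (1.12 to 1.26). Mgst1, at chr6:138140316-138156755 on the plus strand, encodes a membrane-bound transferase and peroxidase of the endoplasmic reticulum and outer mitochondrial membrane. It measured 33.4 and 29.7 FPKM, a ratio of 1.12 (1.03 to 1.22). Intervals that exclude 1 were common at this depth, above 1 for 26.1% and below 1 for 26.1% of the 12369 genes that had one. The middle 50% of all tested genes had log2(FPKM + 1) differences from -0.190 to 0.211. Gstp1 (0.209) and Mgst1 (0.162) lay inside that range and Gsto1 (0.243) above it. Of the 10 genes, 8 had an interval above 1, 1 (Gstm2) below 1 and 1 (Gstm5) including 1.

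The order of the levels differed between the libraries. In the control library it ran from Gstm1 through Gstm2, Gsto1, Gstp1, Mgst1, Gsta4, Gstm5, Gm3776 and Gsta1 to Gsta3, and the counting intervals of the levels met between Mgst1 and Gsta4 and between Gm3776 and Gsta1. In the PRP library it ran from Gstm1 through Gsta4, Gstm2, Gsto1, Gm3776, Gstp1, Gsta1, Mgst1 and Gstm5 to Gsta3, and the intervals met between Gstm2 and Gsto1 and between Gm3776 and Gstp1. Gsta4 thus stood in place 6 of 10 in the control library and in place 2 in the PRP library. The places of Gsta1 and Gm3776 rest on their uncertain split. As 1 unit, at 97.8 FPKM, the pair would stand above Gsta4 in the PRP library. The last place of Gsta3 rests in part on its summed exon length of 4344 bases. By reads, Gsta3 stood above Gstm5 under PRP (1450 against 918). Under control it stood above Gsta1 and Gm3776 (274 against 147 and 169).

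Summed over the superfamily, which is 33 genes in the files, GST genes reached 682.2 FPKM under PRP and 494.9 FPKM under control. The 6 alpha genes made up 193.7 and 41.6 FPKM of these sums, so that the alpha class accounted for 152.2 of the difference of 187.3 FPKM. As a share of the superfamily, the alpha class made up 8.40% of the control library's GST level and 28.4% of that of the PRP library. The 7 mu genes added up to 302.9 and 298.1 FPKM, nearly the same level in both, and their share was 60.2% in the control library and 44.4% in the PRP library. The 4 pi genes summed to 62.2 and 50.6 FPKM, and the 2 omega genes to 74.4 and 61.2 FPKM.

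Outside the 10 genes, 13 of the 23 other superfamily genes in the files had a mean of at least 1 FPKM. Of these, 9 were higher and 4 lower in the PRP library, and 1 was at least 2-fold higher, beside 50.9% and 2.00% among all genes. Their median log2 difference was 0.25. The 1 gene past 2-fold was again of the alpha class. Gsta2 measured 3.68 FPKM under PRP and 1.07 FPKM under control, a ratio of 3.44 (2.13 to 5.81), and 28.4% of its stretches of 100 bases occurred in other genes, 18.2% in Gsta1, 16.9% in Gsta5 and 6.30% in Gm3776. Gsta5, at 1.02 and 0.327 FPKM, stayed under the filter with 44 and 12 reads. Gsto2, the second omega gene, had 3.42 against 1.37 FPKM, a ratio of 2.49 (1.82 to 3.45). The pseudogene Gstp-ps had 3.16 against 1.11 FPKM, a ratio of 2.84 (1.46 to 5.94). Of its stretches of 100 bases, 51.1% occurred in Gstp2 and 39.5% in Gstp1. Gsto2 and Gstp-ps fell below the 2-fold limit on the log2(FPKM + 1) scale, at 0.90 and 0.98, because the pseudocount of 1 weighs on low levels.

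Ratios above 1 with an interval above 1 were also seen for Gstk1, the kappa-class enzyme of mitochondria and peroxisomes (1.78, 1.16 to 2.79), Gstp2 (1.60, 1.20 to 2.15), Ptges, the microsomal prostaglandin E synthase (1.59, 1.27 to 2.00), Gstt2 (1.29, 1.03 to 1.62) and Gstm4 (1.19, 1.05 to 1.35). Gstz1, whose zeta-class enzyme acts in tyrosine breakdown, was lower (0.767, 0.612 to 0.962). The intervals of Gstt1 (0.690), Gstt3 (0.785), Gstcd (0.805) and Mgst3 (1.15) include 1.

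**Figure D3:**
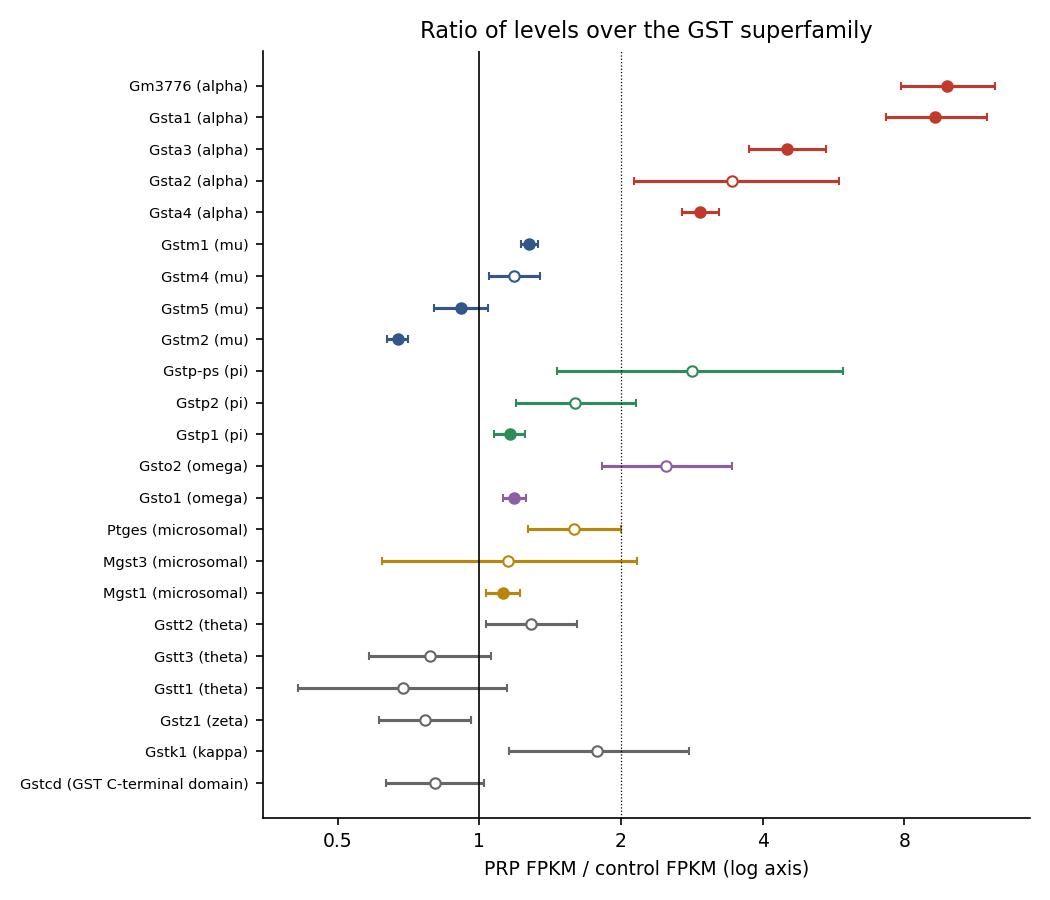
Ratio of PRP FPKM to control FPKM (log axis) for the 23 superfamily genes with a mean of at least 1 FPKM, grouped by class, with exact Clopper-Pearson 95% intervals (counting error only). Filled points are genes of the list of 10, open points are other genes, the solid line marks a ratio of 1 and the dotted line a ratio of 2. The 5 alpha genes run from 2.95 for Gsta4 to 9.85 for Gm3776, and the mu genes from 0.671 for Gstm2 to 1.28 for Gstm1.

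The alpha genes of the list on chromosome 9 were chosen on this contrast, so their values beside those of the genes around them only describe position. Gsta4, Gsta1 and Gm3776 lie within 86.4 kb, with Gsta2 beyond them. Within 250 kb of these genes, 6 genes outside the family had a mean of at least 1 FPKM, of which 2 were higher and 4 lower in the PRP library, with log2(FPKM + 1) differences from -0.57 to 0.31. The lowest was Elovl5, a fatty acid elongase gene, at 7.90 FPKM under PRP and 12.2 FPKM under control, followed by the F-box gene Fbxo9 at 4.65 and 7.12 FPKM. The kinase gene Cilk1, only 10.7 kb from Gsta4, measured 2.04 and 2.63 FPKM. On the other side lay Mto1 (2.46 and 1.80 FPKM), the translation factor gene Eef1a1 (800.7 and 869.2 FPKM) and Gm26377 (111.2 and 95.7 FPKM). Gclc, the catalytic subunit of the enzyme that makes the first intermediate of glutathione, lies 388.3 kb from Gsta4 and is described with its pathway.

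**Figure D4:**
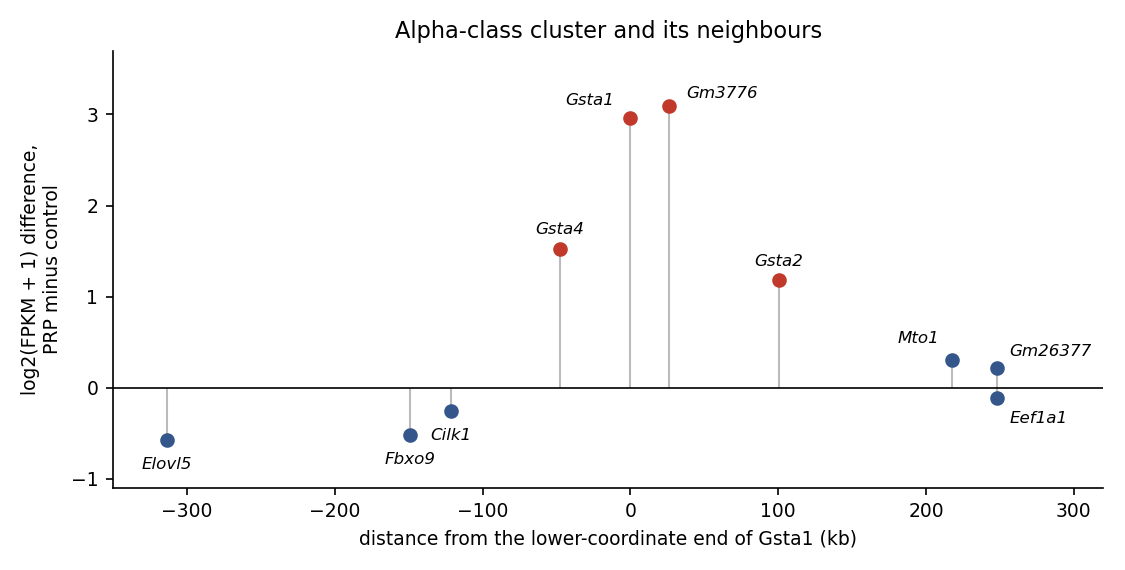
Difference in log2(FPKM + 1), PRP minus control, for genes with a mean of at least 1 FPKM within 250 kb of Gsta1, against the distance of their lower-coordinate end from that of Gsta1 in kb. GST genes (red) lie between 1.18 for Gsta2 and 3.09 for Gm3776, and the 6 other genes (blue) between -0.57 and 0.31.

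Neighbours of the other genes of the list were looked at in the same way. Gsta3 had 2 neighbours above the filter, Tram2 at 1.80 and 2.66 FPKM and Gm7094 with a ratio of 1.17 (0.429 to 3.35). Around the mu cluster there were 7, from -0.09 to 0.64, of which the highest was Csf1, the gene of macrophage colony-stimulating factor, at 330.8 and 211.4 FPKM. Around the pi cluster there were 25, from -0.54 to 0.46, and around the omega pair 4, from -0.22 to 0.26. In all, 22 of 44 such neighbours were higher, 22 were lower and 0 were at least 2-fold changed. Among all 13401 genes, 50.9% were higher and 2.83% differed at least 2-fold.

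Promoter windows, 250 bases before to 50 bases after a start in RefSeq (GRCm38.p6), were found for 9 of the 10 genes, with 11 starts. Gsta4 had no window, so it was not searched for motifs. The windows of Gsta1 and Gm3776, aligned at an offset of 13 bases, were identical at 284 of 287 positions (99.0%). A link between the likeness of these windows and the ratios of the copies was not tested, because the split of their reads is uncertain. The 100 bases that end just before the annotated start are the same in both copies, at chr9:78230555-78230654 and chr9:78257028-78257127 on the plus strand.
Gsta1 and Gm3776: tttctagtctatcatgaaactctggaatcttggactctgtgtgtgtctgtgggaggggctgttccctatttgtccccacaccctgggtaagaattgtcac

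The windows were searched on both strands for TGACNNNGC, the core of the antioxidant response element, for the AP-1 site TGACTCA and for GCGTG, the core bound by the dioxin receptor AhR. These letters can overlap one another, as when CACGC, which is GCGTG on the other strand, ends a TGACNNNGC. The first occurred in 12.4% of 32851 promoter windows of all genes and in those of Gsta3, Gstm5 and Mgst1, which are shown with the match in capitals, on the strand of the gene. The match of Mgst1 reads TGACNNNGC on the opposite strand.
Gsta3 (chr1:21240454-21240483, plus strand): aactcaggcaTGACATTGCatttttcttct
Gstm5 (chr3:107895802-107895831, plus strand): caccgcccacTGACCACGCggagggcgggt
Mgst1 (chr6:138140461-138140490, plus strand): gcggggcttgGCACGGTCAggaggcggggt
The match of Gstm5 also holds the overlapping letters named before. The AP-1 site occurred in 5.20% of all windows and in those of Gstm5 and Gstp1. The AhR core occurred in 32.4% of all windows and in those of Gsta1, Gm3776, Gstm1, Gstm5 and Gstp1. A match is a description of these letters and not a binding site. Only the windows were searched, so sites further from a start, and any site of Gsta4, would be missed. The 3 genes with TGACNNNGC had ratios of 4.50, 0.915 and 1.12, and a link between match and ratio was not tested.

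The study names let-7f-5p and miR-16-5p as exosome cargo, so the longest annotated 3′UTR of each gene was searched for their 7-base seed matches, CTACCTC and TGCTGCT. Both occurred in Gstm5 and neither in the other 9 genes, against 11.2% and 27.1% of 10365 expressed genes with a 3′UTR. The 3′UTRs searched were from 66 bases long (Gstp1) to 765 (Gstm5), and those of Gm3776, Gsta1, Gsta4 and Gsta3 had 105, 106, 170 and 699 bases.

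In the rest of the glutathione pathway, the largest differences were those of cystine uptake and of the first step of glutathione synthesis. Of 20 genes listed for synthesis and recycling, 15 passed the filter, with 9 higher, 6 lower, 3 at least 2-fold higher and a median log2 difference of 0.09, beside 50.9% higher and 2.00% at least 2-fold higher among all genes. The 3 largest differences were Slc7a11, the cystine transporter (7.98 against 0.766 FPKM, ratio 10.4, 8.96 to 12.2), Gclc (66.5 against 23.8 FPKM, ratio 2.79, 2.63 to 2.95) and Slc3a2, the partner chain of Slc7a11 (94.1 against 43.8 FPKM, ratio 2.15, 2.05 to 2.25). Gclm, Gss and Chac1 had ratios of 1.76, 1.90 and 1.76, whereas the dipeptidase gene Dpep1 (0.605) and the aminopeptidase gene Anpep (0.664) had ratios below 1. Export of glutathione conjugates and the making of mercapturates were covered by 11 genes, of which 6 passed the filter, 3 higher and 3 lower, with a median of 0.15 and none past 2-fold. Among the exporters Abcc1 (12.3 against 7.04 FPKM) and Abcc4 (6.23 against 3.98 FPKM) were higher and Abcc5 (9.97 against 13.5 FPKM) was lower.

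Of the genes tied to NRF2, more were higher than lower in the PRP library. Of 8 genes that regulate or partner NRF2, 7 passed the filter, with 6 higher and 1 lower, beside 50.9% higher among all genes. Their median was 0.28, and 1 (Maff) was at least 2-fold higher, beside 2.00% of all genes. Nfe2l2, which encodes NRF2, measured 57.0 against 32.5 FPKM, and the small MAF genes Maff and Mafk 140.1 against 68.2 and 42.8 against 21.1 FPKM. Keap1, the gene of the adaptor that marks NRF2 for breakdown, measured 10.6 against 9.51 FPKM. Among 29 other genes linked to NRF2, 26 passed, with 20 higher, 6 lower, 6 at least 2-fold higher and a median of 0.31, beside the same 50.9% and 2.00% among all genes. The largest differences were Srxn1, which repairs oxidised peroxiredoxins (226.0 against 65.7 FPKM), Taldo1 of the pentose phosphate pathway (54.7 against 17.5 FPKM) and Txnrd1, the cytosolic thioredoxin reductase (110.6 against 44.5 FPKM). Ftl1, Me1 and Ephx1, also linked to NRF2, had ratios of 0.706, 0.796 and 0.893.

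AhR, which can also induce alpha-class genes, was followed through 7 genes of its axis, of which 3 passed the filter. Of these, 1 was higher and 2 were lower, with a median of -0.02, beside 50.9% higher among all genes. Tiparp measured 4.47 against 3.02 FPKM, Cyp1b1 11.0 against 14.1 FPKM and Arnt 17.8 against 18.0 FPKM. Under the filter, Ahr itself was at 0.408 against 0.190 FPKM, a ratio of 2.15 (1.26 to 3.81). The intervals of Ahrr and Cyp1a1, also under it, include 1, and Cyp1a2 was at 0 in both libraries. Of 15 further genes that clear lipid peroxides and aldehydes, substrates shared with the alpha class, 14 passed, with a median of 0.10. Of these, 9 were higher, 5 lower and 1 (Adh7) at least 2-fold higher, beside 50.9% higher and 2.00% at least 2-fold higher among all genes. Adh7, an alcohol dehydrogenase gene, was at 6.47 against 0.928 FPKM, a ratio of 6.97 (5.32 to 9.27), Prdx6 at 37.5 against 23.4 FPKM and the secreted peroxidase gene Gpx3 at 55.3 against 99.1 FPKM. The medians of the 6 lists ran from -0.02 to 0.31, and Slc7a11 (2.35), Adh7 (1.95), Srxn1 (1.77) and Taldo1 (1.59) had larger log2(FPKM + 1) differences than Gsta4 (1.53).

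**Figure D5:**
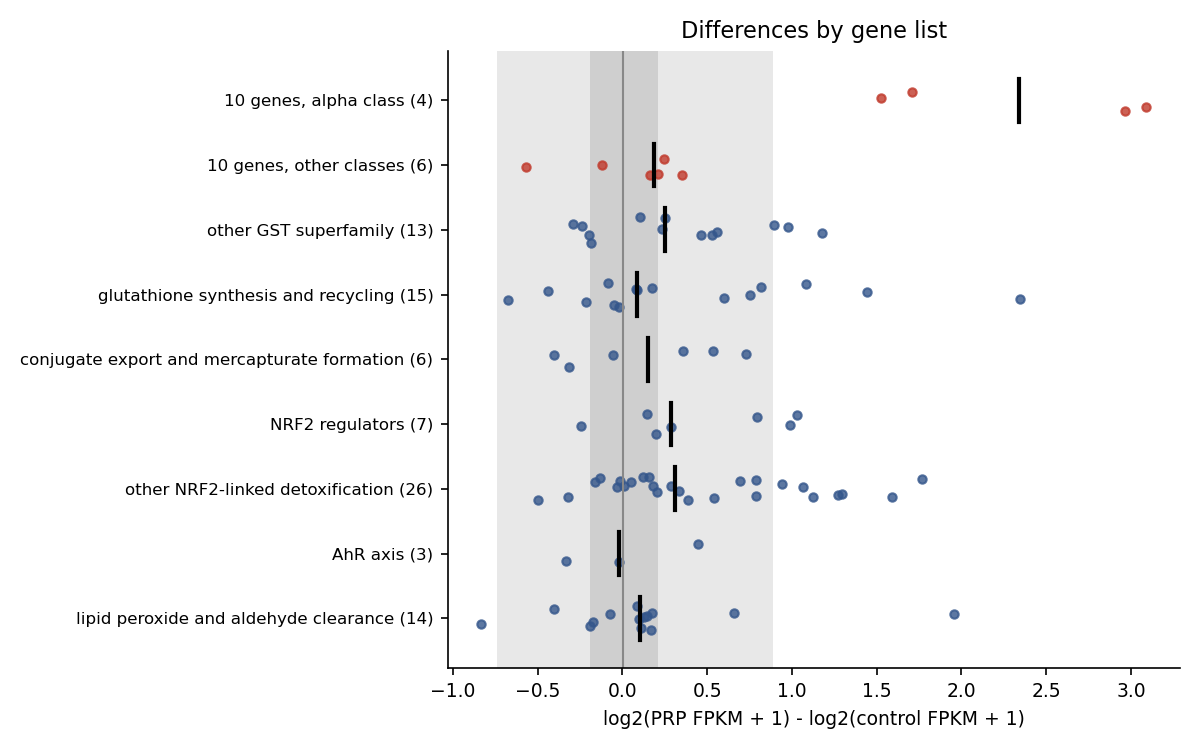
Difference in log2(FPKM + 1), PRP minus control, for each gene above the filter in 9 lists (points, number of genes in brackets, black bar at the median). The dark and light bands hold the middle 50% and 95% of all 13401 genes, the latter from -0.74 to 0.89. The 4 alpha genes lie above the light band, the 6 genes of the other classes lie inside it.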

How the data were processed

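RNA-seq values of 2 mouse FAP libraries, 1 treated with PRP and 1 control, were used. Per the labels, reads were trimmed with fastp 0.23.4, aligned to mm10 with STAR 2.5.3a and counted with featureCounts. The deposited values are FPKM as the authors computed them for 44291 genes. The annotation release, the conversion to FPKM, the strand setting and the treatment of reads that fit several genes are not given in the sources used here. Groups were taken from the sample titles.

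With exon lengths of GENCODE M21, FPKM gave whole reads, within 0.001 reads, in both libraries for 93.8% of 28160 expressed genes with an M21 length. Even read numbers made up 79.3% and 80.3% of genes with up to 8 reads, as when both mates of a pair are counted, so intervals used reads divided by 2. Recovered reads served for depth and intervals (exact Clopper-Pearson for ratios, exact Poisson for levels) only. No count test was run, because there is 1 library per group. The intervals take no account of PCR duplicates.

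Differences were taken on log2(FPKM + 1), PRP minus control, where the mean of both libraries reached 1 FPKM. This pseudocount understates changes at low levels. Named genes were the 10 genes, other superfamily genes above the filter, the 3 largest differences in each pathway list, neighbours within 250 kb and the highest marker levels. Further genes of the pathway, marker and superfamily lists (Gclm, Gss, Chac1, Dpep1, Anpep, Keap1, Ftl1, Me1, Ephx1, Ahr, Ahrr, Cyp1a1, Cyp1a2, Gsta5, and markers below the highest of their list) were named after their values were seen. The 10 genes and the lists were chosen with earlier results of these data known. Coding sequences, used in place of proteins, were aligned from M21, and promoters came from RefSeq. Alternatives covered the pseudocount (0.1 and 5), the filter (none, or 5 FPKM), rescaling to a common sum with or without mitochondrial genes and the 50 most abundant genes, centring on the median gene, fold limits of 1.5 and 4, a merged Gsta1 pair, the mean in place of the median, and stretches of 50 and 150 bases. Python 3.11.15, NumPy 2.4.6, pandas 2.3.3, SciPy 1.17.1, Biopython 1.88 and matplotlib 3.10.9 were used, and the procedures were tested on simulated data.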

Additional observations from a re-analysis of the deposited data

How the results depend on the processing

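Under each alternative scaling, filter and pseudocount, 8 of the 10 genes were higher in the PRP library, beside 50.9% of all 13401 genes under the main settings. The list was chosen on this contrast, so its count only describes the processing. The 4 alpha genes stayed positive, with log2 differences from 2.51 to 3.28 for Gm3776, 2.30 to 3.19 for Gsta1, 0.96 to 2.11 for Gsta3 and 1.41 to 1.56 for Gsta4. Gstm2 stayed between -0.61 and -0.55. With a pseudocount of 5, Gsta3 fell just short of 2-fold. At a limit of 4-fold, 2 of the 10 genes remained past it (Gsta1 and Gm3776), beside 26 of all 13401 genes. The mean difference over the 10 genes was 0.96, above the median because the alpha genes carry it. The median of the other superfamily genes was 0.11 with no filter and 0.40 with the filter at 5 FPKM. That filter gave medians of 0.46 for synthesis and recycling, 0.36 for conjugate export, 0.54 for NRF2 regulators and -0.17 for the AhR axis, and with no filter conjugate export was at -0.020. Among all genes, those at least 2-fold changed numbered 379, and 739 and 113 with pseudocounts of 0.1 and 5, 210 with the filter at 5 FPKM, 596 after rescaling, 638 after rescaling without mitochondrial and top genes, and 1436 and 26 at limits of 1.5 and 4. Shared stretches were 90.5% and 68.4% for Gsta1 and 92.5% and 77.7% for Gm3776 at 50 and 150 bases. The remaining 67 alternatives for the counts and medians moved counts by at most 1.5 times and medians by at most 0.125. That limit is the median half-width of the log2 intervals of the 10 genes, not the counting error of a list median. Beyond how each alternative is built, what causes these shifts was not tested. No paired analysis was possible because there was 1 library in each group. With 1 library per group, no value can be set against the spread between cultures, and the sequence shared by Gsta1 and Gm3776 limits their separate values at any depth.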
